A study of Mus musculus with 2 samples.

Results

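The genes described here carry the signal of the Toll-like receptors and NOD receptors to the NF-κB transcription factors. They were chosen by symbol from the annotation of the array, as 41 named genes sorted by role into receptors, adaptors, kinases, TRAF proteins, NF-κB factors, NF-κB inhibitors and the protease caspase-1. Of these, 31 had at least 1 probe set (a group of short oligonucleotide probes that reads 1 transcript) with that symbol alone, out of 12393 genes with such a probe set. Together the 31 genes had 58 probe sets. The choice used names and no measured value, and it was made with earlier results of these data known.

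Total RNA came from the distal colon of wild-type FVB mice and of IL-9 transgenic mice, a line titled Tg5, and was read on Affymetrix expression arrays. RNA of 4 mice was pooled for each genotype, and each pool was read on 1 array. All mice were bred free of specific pathogens. FVB is an inbred mouse strain; the design text spells the wild-type strain TVB, the labels FVB. Interleukin-9 (IL-9) is a type 2 cytokine with mast cells among its targets. The promoter of the transgene, its strain background and the age and sex of the mice are not given in the sources used here. With 1 pool of each genotype there is no spread between mice, so no test was possible and no p-value is given; every comparison below is between these 2 pools only.

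Toll-like receptors sit at the cell surface or in endosomes and recognise microbial lipids, flagellin and nucleic acids, whereas NOD receptors recognise fragments of bacterial cell wall in the cytosol. Most Toll-like receptors pass the signal through the adaptor MyD88 to IRAK kinases, the ubiquitin ligase TRAF6 and the kinase TAK1, which activates the IKK complex. IKK marks the IκB proteins for destruction and so frees NF-κB dimers to enter the nucleus. In the colon, which lies beside a dense microbiota, the pathway is known both for driving inflammation and for maintaining the epithelium, and several of its brakes are themselves NF-κB target genes.

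The upstream sequences of 3 members are shown because these genes, which encode the inhibitor IκBα (Nfkbia), the ubiquitin-editing brake A20 (Tnfaip3) and the precursor of the factor p52 (Nfkb2), are classical NF-κB targets. Tnfaip3 and Nfkb2 also had some of the higher ratios among the members, and Nfkbia the brightest probe set. Each is the 250 bases before an annotated start site, 5′ to 3′ on the gene's strand, from RefSeq on GRCm38.p6. Capitals mark matches to the 10-base κB consensus on either strand, and the start site with the most matches was taken. The windows are chr10:19015411-19015660 (minus strand) for Tnfaip3, chr19:46304487-46304736 (plus strand) for Nfkb2 and chr12:55492648-55492897 (minus strand) for Nfkbia.
Tnfaip3: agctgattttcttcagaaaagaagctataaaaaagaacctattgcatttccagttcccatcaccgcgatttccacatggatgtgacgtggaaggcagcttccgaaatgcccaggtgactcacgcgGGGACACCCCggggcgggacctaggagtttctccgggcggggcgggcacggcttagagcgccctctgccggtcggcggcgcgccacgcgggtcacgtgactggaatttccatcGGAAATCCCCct
Nfkb2: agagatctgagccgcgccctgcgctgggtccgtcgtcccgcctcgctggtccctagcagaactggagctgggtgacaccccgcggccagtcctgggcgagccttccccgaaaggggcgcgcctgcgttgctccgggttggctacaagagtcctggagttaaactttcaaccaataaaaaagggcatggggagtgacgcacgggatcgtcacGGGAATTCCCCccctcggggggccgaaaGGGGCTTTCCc
Nfkbia: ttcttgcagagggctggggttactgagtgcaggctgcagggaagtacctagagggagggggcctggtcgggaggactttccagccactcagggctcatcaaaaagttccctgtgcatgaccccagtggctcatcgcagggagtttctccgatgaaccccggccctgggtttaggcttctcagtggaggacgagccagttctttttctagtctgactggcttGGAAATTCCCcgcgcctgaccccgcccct

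The Tnfaip3 window held 2 matches, which began 125 and 12 bases before the start site. The Nfkb2 window held 3, of which those at 39 and 38 bases overlap and the other began at 11 bases. The Nfkbia window held 1, at 29 bases. A window was found for 35 of the 41 members, and 10 of these (28.6%) had a match in at least 1 window, against 8.23% of 27025 genes with a window. The other members with a match were Tlr2, Tlr3, Map3k7, Irak1, Rel, Nfkbie and Traf3. A match of letters is a description of the sequence and does not show binding.

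Transcript levels of the measured members differed between the pools about as rarely as those of all genes. Intensities (MAS5 signal, linear scale) were held at a floor of 19.8, below which ratios are unstable, and a gene counts as measured if either array was above that floor. Of the 31 genes, 25 were measured, and ratios are given as log2 of transgenic over wild type for the brightest probe set of each gene. None of the 25 reached 2-fold in either direction, where 1.38% of all 8346 measured genes did (0.767% higher, 0.611% lower). At the smaller threshold of 1.5-fold, 1 member was higher, Tnfaip3, and 1 was lower, Tlr4, against a background of 4.09% higher and 2.85% lower (6.94% in all). Both shares are close to the background.

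Small positive ratios were the rule among the members. Of the 25, 20 had a ratio above 0 (18 under median scaling, quantile normalization or loess), where 56% of all measured genes did, and 9 of these 20 were under 0.1 on the log2 scale. The members' median log2 ratio was 0.09, beside 0.04 for all measured genes. Their median size, taken without sign, was 0.14, beside 0.18. A technical yardstick is the scatter between probe sets of the same gene, whose pooled SD of the log2 ratio was 0.28 over 2847 genes. By that measure 17 of the 25 members lay within 1 SD of 0, where 68.5% of all measured genes did. The yardstick holds no variation between animals.

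**Figure D1:**
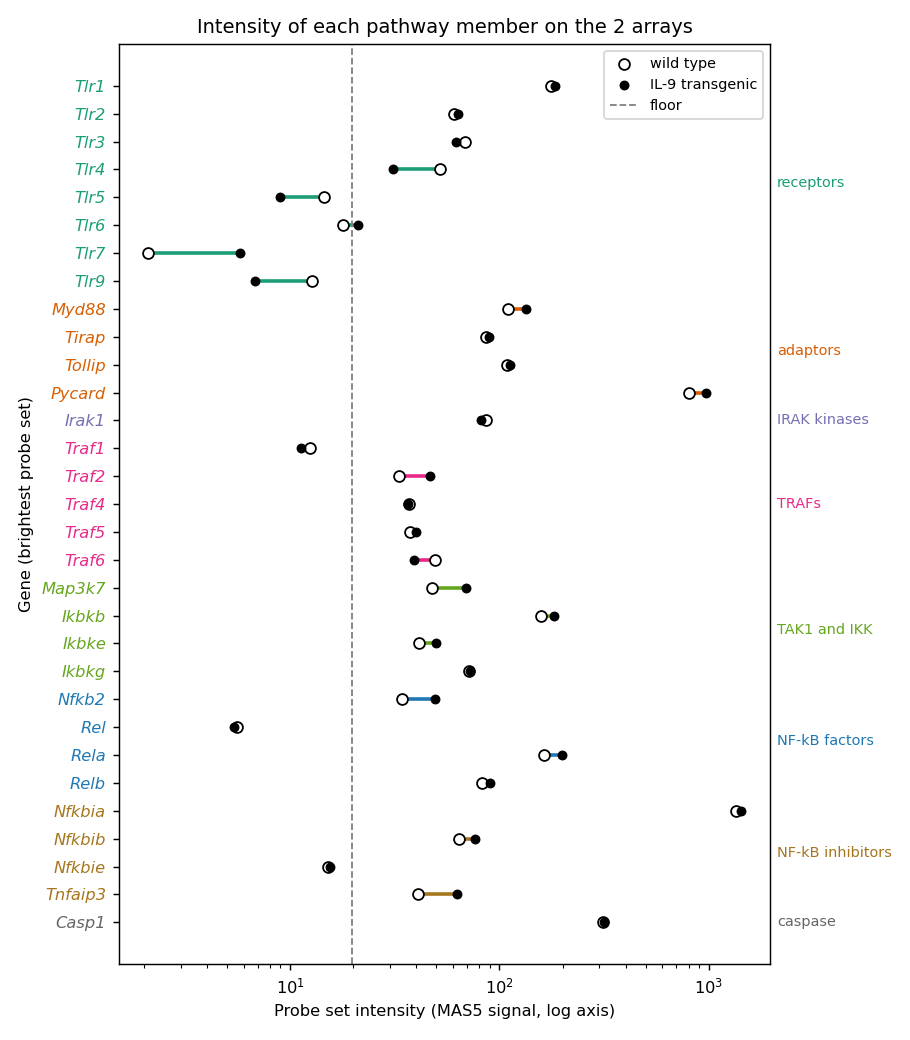
Intensity of the brightest probe set of each of the 31 members (horizontal log axis, MAS5 signal) in the wild-type pool (open circles) and the IL-9 transgenic pool (filled circles), coloured by role, with the floor of 19.8 as a dashed line. Most pairs of circles lie close together, and 6 genes lie below the floor in both pools.

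Among the receptors, 5 of 8 with a probe set were measured, and Tlr1, Tlr2 and Tlr3 had nearly equal intensities in both pools. Tlr2, which senses bacterial lipoproteins (probe set 1419132_at), read 60.9 in the wild-type and 63.3 in the transgenic pool, a log2 ratio of 0.06. Tlr1, its partner for triacylated lipopeptides (1449049_at), had 175 and 184, a log2 ratio of 0.07. Tlr6, the partner of Tlr2 for diacylated lipopeptides (1421352_at), read 17.8 in the wild-type pool, under the floor, and 21.2 in the transgenic pool, just above it, so its difference is only a bound of at least 1.07-fold. Tlr1 and Tlr2 were thus read at similar levels in both pools, and for Tlr6 no upper limit of the difference can be given.

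Tlr3, the endosomal sensor of double-stranded RNA, had 68.4 in the wild-type and 62.2 in the transgenic pool by 1422782_s_at, a log2 ratio of −0.14. Its second probe set, 1422781_at, gave −0.11. Both sets read Tlr3 slightly lower in the transgenic pool.

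Tlr4, the receptor for bacterial lipopolysaccharide, was the member with the largest ratio in size. Its brightest probe set, 1418163_at, read 52.3 in the wild-type and 30.9 in the transgenic pool, 1.69-fold lower (log2 ratio −0.76), and 266 of all measured genes had a ratio at least that large in size. The other set, 1418162_at, read 25.6 and 24.6, a log2 ratio of −0.05, so the 2 probe sets of Tlr4 do not show the same difference. The mean over both was −0.41, which is below 1.5-fold. Both sets were dim, and with a floor at the 60th percentile Tlr4 was not measured, so that setting gives no reading of its ratio.

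Tlr5, Tlr7 and Tlr9, which sense flagellin, single-stranded RNA and unmethylated CpG DNA, were below the floor in both pools. Tlr5 (1450242_at) had 14.6 in the wild-type and 8.97 in the transgenic pool. Tlr9 (1422083_at) had 12.7 and 6.83. The brightest of the 3 sets of Tlr7 (1422010_at) had 2.10 and 5.74. No direction is read from values under the floor. Nod1 and Nod2, the sensors of bacterial wall fragments, had no single-symbol probe set and were not analysed here. The receptors had a median log2 ratio of 0.06, which turned to −0.05 with a lower floor at the 20th percentile.

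The measured adaptors all had ratios above 0. Myd88 (1419272_at), the adaptor that most Toll-like receptors share, had 110 in the wild-type and 134 in the transgenic pool, a log2 ratio of 0.29. Pycard (1417346_at), which encodes the inflammasome adaptor ASC, had 806 and 965, a log2 ratio of 0.26; its other probe set was below the floor on both arrays. These 2 had the larger ratios of the group, each close to the scatter between probe sets.

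Tirap (1457676_at), which brings MyD88 to Tlr2 and Tlr4 at the membrane, had 86.6 and 89.0, a log2 ratio of 0.04. Tollip (1423047_at), a protein that dampens IRAK signalling, had 109 and 112, also 0.04, while its second set 1423048_a_at gave 0.27. All 4 measured adaptors were above 0, where 56% of all measured genes were, and their median was 0.15. By their brightest sets, Tirap and Tollip lay at the median of all measured genes, 0.04, and each was at 0.01 after loess. Ticam1, the adaptor of Tlr3, was not analysed here. Casp1 (1449265_at), the inflammasome protease that matures IL-1β and IL-18, had 314 and 315, a log2 ratio of 0.01 that turned slightly negative under the 3 other scalings, as did that of Ikbkg below.

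Downstream kinases and TRAF proteins went both ways. Irak1 (1438120_x_at), the kinase recruited by MyD88, had 86.2 in the wild-type and 81.3 in the transgenic pool, a log2 ratio of −0.08. Its 3 other probe sets were all positive, at 0.14, 0.32 and 0.47. The set at 0.47 (1460649_at) is the one whose name does not mark it as able to bind several transcripts, so the sign for Irak1 depends on the probe set. Irak2, Irak3, Irak4 and Ripk2 were not analysed here.

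Traf6 (1435350_at), the ubiquitin ligase that acts after the IRAK kinases, had 49.1 and 39.2, a log2 ratio of −0.32. Its 2 other sets were below the floor. Traf2 (1451233_at), which serves receptors of the TNF family, went the other way, from 33.3 in the wild-type to 46.4 in the transgenic pool, a log2 ratio of 0.48.

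Traf4 (1460642_at) had 37.1 and 36.5, a log2 ratio of −0.02, and Traf5 (1448861_at), another adaptor of TNF family receptors, 37.6 and 39.9, a log2 ratio of 0.09. Traf1, an inducible adaptor of the same receptors, was below the floor at 12.5 and 11.3, and Traf3 was not analysed here. The 4 measured TRAF genes were split evenly around 0, with a median of 0.03.

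Map3k7, which encodes the kinase TAK1, had 47.7 in the wild-type and 69.3 in the transgenic pool by its brightest set (1425795_a_at), a log2 ratio of 0.54. Its 3 other measured sets gave 0.20, 0.13 and −0.20, of which the first and the last crossed the floor, and the mean over the measured sets was 0.17. The larger value thus belongs to 1 probe set of the gene.

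The IKK genes were level or slightly higher. Ikbkb (1426207_at), the kinase IKKβ that acts on IκB proteins, had 157 and 183, a log2 ratio of 0.22, and its other measured set gave 0.13. Ikbke (1417813_at), the related kinase IKKε, had 41.3 and 49.6, a log2 ratio of 0.26. Ikbkg (1454690_at), the regulatory subunit NEMO, had 71.7 and 72.1, a log2 ratio of 0.01, with its other sets at 0.12, 0.06 and −0.52. The 4 measured genes of this step, with Map3k7 among them, had a median of 0.24, or 0.17 with the mean of all probe sets. Chuk, which encodes IKKα, was not analysed here.

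**Figure D2:**
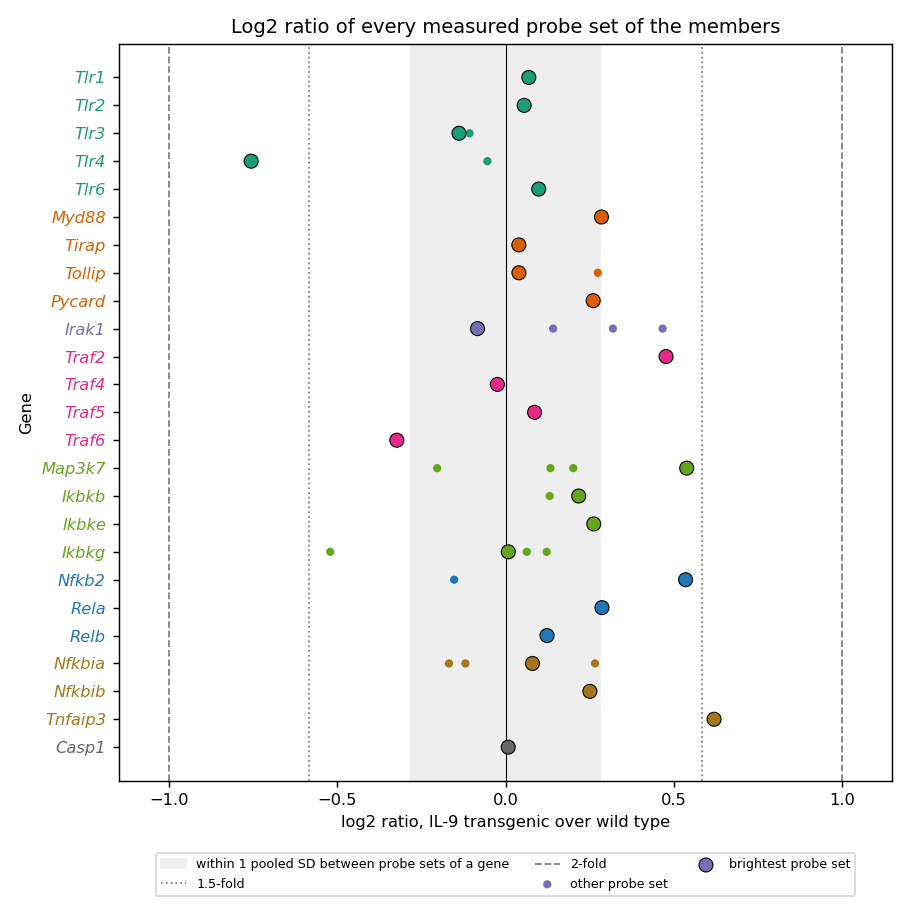
Log2 ratio of IL-9 transgenic over wild type (horizontal axis) for each of the 42 measured probe sets of the 25 measured members, with the brightest set of a gene as a large outlined point and the others as small points. The grey band is 1 pooled SD between probe sets of a gene (0.28), dotted lines are 1.5-fold and dashed lines 2-fold; only Tlr4 and Tnfaip3 pass a dotted line, and no point reaches a dashed one.

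The NF-κB factors that were measured had ratios above 0. Rela (1419536_a_at), which encodes the main activating subunit p65, had 163 in the wild-type and 199 in the transgenic pool, a log2 ratio of 0.29. Relb (1417856_at), the partner of p52 in the alternative pathway, had 82.7 and 90.1, a log2 ratio of 0.12. Nfkb2 (1425902_a_at) had 34.1 and 49.5, a log2 ratio of 0.54. The other Nfkb2 set, 1429128_x_at, crossed the floor in the other direction, from 22.0 to 14.8, a log2 ratio of −0.15 with the floor in place.

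Rel, the subunit prominent in lymphocytes, was far below the floor at 5.55 and 5.43. Nfkb1, which encodes p105 and p50, was not analysed here. The 3 measured factors had a median of 0.29, which was 0.12 when only Relb was left after removal of probe sets that can bind several transcripts.

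Of the inhibitors, Tnfaip3 (1450829_at) had the highest ratio of all members. It had 40.7 in the wild-type and 62.5 in the transgenic pool, 1.54-fold higher (log2 ratio 0.62), and 490 of all measured genes had a ratio at least that large in size. Tnfaip3 had a single probe set, so no second reading of this difference exists on the array, and with a floor at the 60th percentile its log2 ratio was 0.18. Nfkbib (1421266_s_at), which encodes IκBβ, had 64.2 and 76.4, a log2 ratio of 0.25.

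Nfkbia was the brightest member, at 1342 in the wild-type and 1419 in the transgenic pool by 1420088_at, a log2 ratio of 0.08. Its 3 other sets gave 0.27, −0.12 and −0.17, so the gene encoding IκBα had no common direction. Nfkbie, which encodes IκBε, was below the floor at 15.2 and 15.5. The 3 measured inhibitors had a median of 0.25. Tnfaip3 and Nfkbia, both with κB matches in the sequences shown above, thus had log2 ratios of 0.62 and 0.08.

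The level of agreement between probe sets bears on all of these values. Of the 58 probe sets, 42 were measured, 30 with a positive and 12 with a negative log2 ratio, and their median was 0.09. Among all measured probe sets 53.6% were positive. None of the 42 reached 2-fold, where 1.45% of all measured probe sets did, and 2 passed 1.5-fold, where 7.6% did. Of the 9 members with several measured sets, 5 had sets of both signs. The pooled SD between sets of a gene was 0.26 over 8 members with several sets above the floor on both arrays, close to the 0.28 of all genes.

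**Figure D3:**
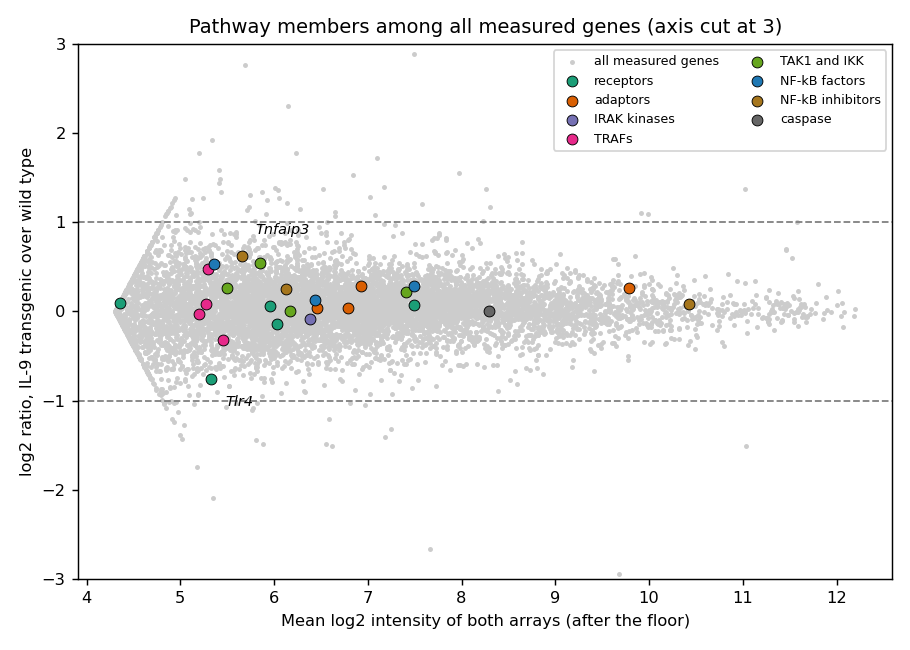
Log2 ratio of IL-9 transgenic over wild type (vertical axis) against the mean log2 intensity of both arrays (horizontal axis) for all 8346 measured genes in grey and the 25 measured members in colour by role; dashed lines mark 2-fold and 23 genes lie beyond the plotted range of 3. The members lie inside the cloud of other genes at like intensity, with Tlr4 at −0.76 and Tnfaip3 at 0.62 as the outermost.

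Taken apart from the receptors, the 20 measured adaptors, kinases, TRAF proteins, factors, inhibitors and caspase-1 had a median log2 ratio of 0.17, with 17 above 0. The 5 measured receptors had a median of 0.06, with 3 above 0. Of all measured genes, 56% were above 0. Among the 17, Casp1 and Ikbkg were at 0.01 and turned slightly negative under the 3 other scalings. The difference between the medians of receptors and other members was not tested, since 1 array of each genotype allows no test.

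Genes that work with the receptors varied around 0. In a list of 24 receptor partners and further sensors, 16 were measured, and the median log2 ratio was −0.06. None of the 16 reached 2-fold, where 1.38% of all measured genes did. At 1.5-fold 2 were higher and 1 lower, beside 4.09% and 2.85% of all measured genes. Clec7a, the β-glucan receptor Dectin-1, was at the floor in wild type (12.5) and had 31.4 in transgenic colon, at least 1.59-fold higher. Ly86, which encodes MD-1, the partner of the Toll-like receptor homologue CD180, had 32.3 and 49.8, a log2 ratio of 0.62. Aim2, a cytosolic DNA sensor, had 33.2 in wild type and was below the floor in transgenic colon (12.1), at least 1.68-fold lower.

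Unc93b1, the chaperone that carries nucleic acid-sensing Toll-like receptors to endosomes, had 51.7 and 75.3, a log2 ratio of 0.54. The co-receptors of Tlr4 did not share its lower value: Cd14 had 273 and 286, a log2 ratio of 0.07, and Ly96, which encodes MD-2, had 23.6 and 22.9, a log2 ratio of −0.04. Cd14 and Ly96 were chosen after their values were seen.

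The remaining relay genes had a median log2 ratio near the 0.04 of all measured genes. Of 28 further kinases, adaptors and interferon regulatory factors, 23 were measured, and the median was 0.02, or −0.03 after loess. None of the 23 passed 1.5-fold, where 6.94% of all measured genes did. The largest ratios in size were those of Irf7, a factor that drives type I interferon genes, at 0.52, Irf5 at −0.34 (at the floor in transgenic colon, a bound), the kinase gene Mapk9 at 0.31 and the ubiquitin-conjugating enzyme gene Ube2n at −0.29.

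A list of 20 other regulators, which holds deubiquitinases, linear ubiquitin ligase subunits and nuclear IκB proteins, had 12 measured genes and a median of 0.17, with 2 higher at 1.5-fold, beside 4.09% of all measured genes. Bcl3, a nuclear IκB protein that can act as a coactivator of p50 and p52, had 40.7 in the wild-type and 69.8 in the transgenic pool, a log2 ratio of 0.78. Zc3h12a, which encodes the RNase regnase-1, was at the floor in wild type (14.5) and had 30.3 in transgenic colon, at least 1.53-fold higher. Rbck1, a subunit of the linear ubiquitin ligase, had 82.9 and 124, a log2 ratio of 0.58, and Inpp5d, the lipid phosphatase SHIP1 of blood cells, had 0.40.

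**Figure D4:**
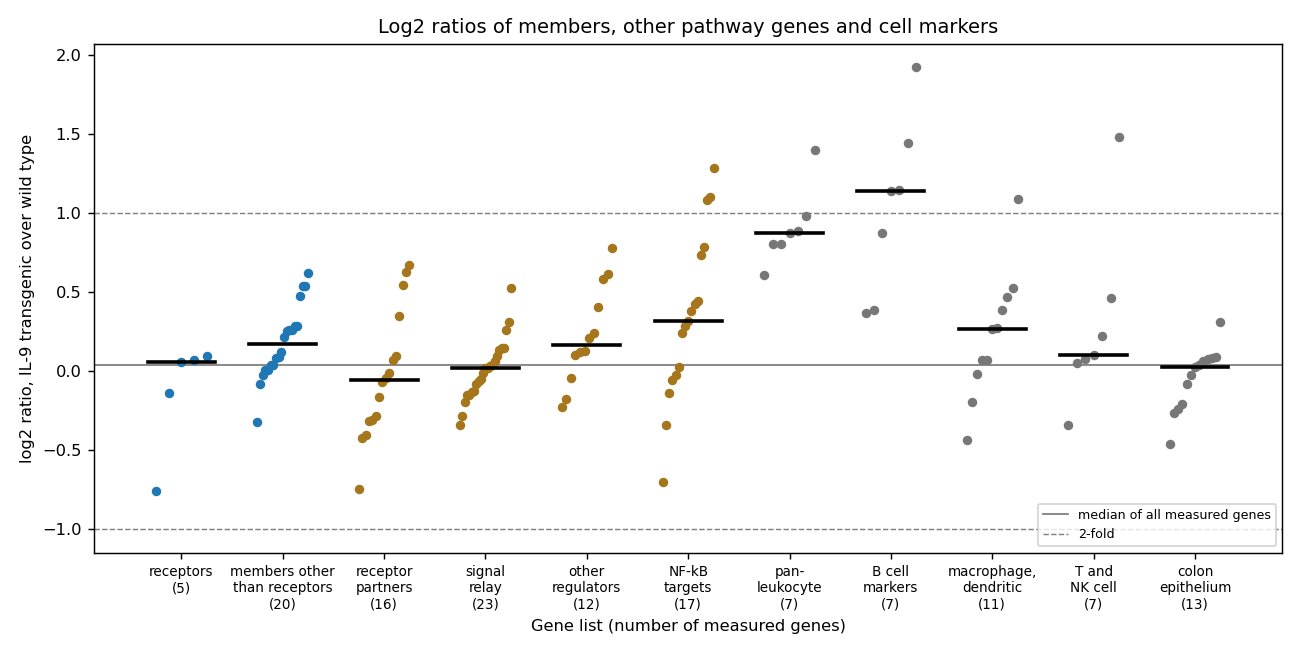
Log2 ratio of IL-9 transgenic over wild type (vertical axis) of each measured gene in the receptors, the other members, the further pathway lists, and the pan-leukocyte, B cell, macrophage and dendritic cell, T and NK cell, and colon epithelium marker lists, with medians as black bars and the number of genes in brackets. The members' medians (0.06 and 0.17) lie near the median of all genes (0.04), macrophage and dendritic cell markers have 0.27 and T and NK cell markers 0.10, while pan-leukocyte and B cell markers have medians of 0.88 and 1.14; mast cell markers (median 1.78) reach beyond the axis and are not drawn.

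Of the NF-κB target genes, nearly as many were below the floor as were measured, and most of the measured ones had ratios above 0. Of 31 targets with a probe set, 14 stayed under the floor in both pools, among them the cytokine genes Tnf (3.96 and 2.50), Il6 (0.249 and 0.171) and Il1b (9.99 and 16.1) and the neutrophil chemokine genes Cxcl1 (8.07 and 4.32) and Cxcl2 (4.27 and 4.29), all named after their values were seen. The 17 measured targets had a median log2 ratio of 0.31, beside 0.04 for all measured genes. Of these targets 12 were above and 5 below 0, where 56% of all measured genes were above 0. At 1.5-fold 5 were higher and 1 lower, beside 4.09% and 2.85% of all measured genes. Of the 17, 3 were at least 2-fold higher, where 0.767% of all measured genes were. These were Psmb9, an immunoproteasome subunit, with 83.7 in the wild-type and 204 in the transgenic pool (log2 ratio 1.28), Tap1, the peptide transporter of MHC class I, at the floor in wild type with 19.0 and 42.5 (at least 2.15-fold), and Ltb, the lymphocyte cytokine lymphotoxin β, with 21.3 and 45.1 (log2 ratio 1.08). Psmb9 and Tap1 are also interferon-induced genes, and Ltb is a gene of lymphocytes.

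Icam1, the leukocyte adhesion ligand, had 26.3 in the wild-type and 45.2 in the transgenic pool, a log2 ratio of 0.78. The epithelial chemokine gene Ccl20 was at least 1.66-fold higher, and Ptgs2, the inducible cyclooxygenase, was 1.63-fold lower by its brightest set with its second measured set at 0.01. Ccl20 and Ptgs2 were chosen after their values were seen. Pigr, the epithelial carrier of IgA, had 3066 and 3118, a log2 ratio of 0.02, also chosen later. Some targets had measured probe sets of both signs, such as Vcam1 (−0.36 to 0.42) and Cflar (−0.34 to 0.50), likewise chosen later.

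The marker lists of leukocytes differed among themselves. As background for the counts below, 4.09% of all measured genes were higher at 1.5-fold and 0.767% at 2-fold, and 56% were above 0. All 7 pan-leukocyte markers were higher at 1.5-fold and 1 of them at 2-fold, with a median log2 ratio of 0.88, and their summed intensity was 704 in the wild-type and 1343 in the transgenic pool. Of 10 B cell markers on the array 7 were measured, all 7 above 0 and 4 at least 2-fold higher, with sums of 571 and 928; Blk, Pax5 and Fcer2a were below the floor. Of 13 macrophage and dendritic cell markers 11 were measured, with 1 at least 2-fold higher, a median of 0.27 and sums of 1534 and 1745. Of 11 T and NK cell markers 7 were measured, 5 of them as bounds, with 1 at least 2-fold higher, a median of 0.10 and sums of 175 and 262. Mast cell markers had the highest median of these lists, 1.78, itself a bound. Of 11, 9 were measured, 5 of them as bounds, and 5 were at least 2-fold higher. Their sums were 267 and 3392, most of the latter from Mcpt1 (1297) and Mcpt2 (1472). Tpsab1 was lower in the transgenic pool (log2 ratio −0.30), and Ms4a2 and Hdc were below the floor. None of 9 neutrophil markers exceeded the floor. In whole tissue, more cells of a type and more RNA per cell cannot be told apart, and the part of leukocyte content in the ratios of Tnfaip3, Nfkb2 and Ltb was not tested; nor was that of mast cells.

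All 13 colon epithelium markers on the array were measured, among them Car1, Aqp8 and Krt20, with a median log2 ratio of 0.03. Their summed intensity was 25653 in the wild-type and 25041 in the transgenic pool, so both pools carried transcripts of colon epithelium. Whether these came from the distal segment was not tested. Markers of pancreatic acinar cells summed to 28497 in the wild-type and 1673 in the transgenic pool. All 11 were at least 2-fold lower, where 0.611% of all measured genes were, so acinar transcripts were far more abundant in the wild-type pool. No member belongs to that list. With 1 pool of each genotype, any part of acinar RNA in the members' ratios cannot be told apart from genotype and was not tested. The arrays were alike in median intensity (34.0 and 34.2) and in the share of probe sets above the floor (60.2% and 59.8%).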

How the data were processed

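Distal colon RNA of 2 genotypes was measured on 1 array each, from pools of 4 mice. The deposited intensity of each probe set was made by the authors with MAS5, per the submitters' processing notes; the version, the scaling target and the detection calls are not given in the sources used here. MAS5 subtracts background and mismatch signal, so ratios of low values are unstable. Of 22690 probe sets 64 were controls; of the others 20380 had 1 gene symbol in the platform annotation, 691 several and 1555 none, and only the first were used. The genome build behind the probes is not given, so probe sets have no coordinates here.

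Intensities under a floor of 19.8 (40th percentile of non-control intensities) were raised to it, and log2 ratios of transgenic over wild type were taken with no further scaling, for the brightest probe set of each gene by its mean over both arrays. Where 1 array was at the floor the ratio is a bound. Genes were counted at 2-fold and 1.5-fold. Members, lists and thresholds were chosen with earlier results of these data known. Every measured member is named; of each further pathway list, the 4 measured genes with the largest ratios in size are named, others being marked as chosen later. The ratio step was tested on simulated data, for genes well above the floor with differences of 2-fold or more. Dim genes, smaller differences and the effect of the floor were not covered by it. Alternatives were other scalings, floors of the 20th and 60th percentiles, a pseudocount of 0.399 without a floor, the mean of probe sets, and fewer probe sets. Upstream windows came from RefSeq (GRCm38.p6). Python 3.11.15, pandas 2.3.3, statsmodels 0.14.6 and matplotlib 3.10.9 were used. Precision is limited by the number of arrays.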

Additional observations from a re-analysis of the deposited data

How the results depend on the processing

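No paired analysis was possible because each genotype has 1 pool on 1 array, and no array can be left out. Under median scaling, quantile normalization and an intensity-dependent loess, the counts of members at 2-fold (0 and 0) and at 1.5-fold (1 and 1) did not change, and the members' median log2 ratio ranged from 0.08 to 0.10; 18 of 25 members were above 0 under each of the 3 scalings in place of 20. With the 20th percentile as floor, 3 members were lower at 1.5-fold (Tlr4, Tlr5 and Tlr9), the receptor median was −0.049, and among all genes 202 were higher and 258 lower at 2-fold and 766 and 838 at 1.5-fold, against 64, 51, 341 and 238 in the main setting. With the 60th percentile as floor, 17 members were measured, Tlr4 not among them, and 0 were higher and 0 lower at 1.5-fold. The NF-κB target median there was 0.18, and the counts over all genes were 29, 27, 148 and 95. Without a floor 1 member was higher at 2-fold (Tlr7), 2 were higher and 3 lower at 1.5-fold, and the counts over all genes were 725, 893, 1387 and 1592. With the mean of all probe sets 0 members were lower at 1.5-fold and Irak1, the only measured gene of the IRAK and RIP kinases, was at 0.21. With probe sets that can bind several transcripts removed, Irak1 was at 0.47 and the NF-κB factor median, over Relb alone, was 0.12. By construction a floor changes both which genes are measured and, for dim genes, the size of the ratio: Tnfaip3 was still measured at the 60th percentile, with a log2 ratio of 0.18. Of 189 values of single members under the alternatives, 182 moved by less than 0.28, 7 moved further and 0 of those past 1.5-fold changed sign. Only Tlr4 and Tnfaip3 were past 1.5-fold in the main setting. Members left unmeasured by an alternative, such as Tlr4 at the 60th percentile, are not among these values. For a gene well above the floor, a change of floor leaves the ratio as it was.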

Other observations

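Values of the members below the floor differ by setting and belong in no comparison. With a floor at the 20th percentile, Tlr9 had a log2 ratio of −0.90 and Tlr5 one of −0.70, while Traf1 had −0.15 and Nfkbie 0.02. Without a floor, Tlr7 had 1.29, from intensities of 2.10 in the wild-type and 5.74 in the transgenic pool. Rel had −0.03 without a floor.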
